A study of Rattus norvegicus with 10 samples.

Results

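The histone genes on the Clariom S Rat array were compared between femoral skeletal muscle taken at 0 h and at 48 h of PMI (postmortem interval, the time since death). Members were all genes whose current symbol starts with a histone family name (H1f, H2a, H2b, H3 or H4) and that encode a histone. This gave 21 genes of 15037 genes with a symbol, each measured by 1 probe set (several short probes of the array, summarised together). The animals were 10 adult wild-type male Wistar rats under 200 g, killed by cervical dislocation. Muscle was taken at once from the 5 rats of the 0 h group, while the 5 rats of the 48 h group lay at 25 °C for 48 h in a climatic chamber before sampling. They were different animals, each with its own array, and the labels name no other agent or allele.

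Histones are the small basic proteins around which DNA is wound. Pairs of H2A, H2B, H3 and H4 form the nucleosome core, and linker histone H1 binds where DNA enters and leaves it. Replication-dependent histone genes lie in clusters, lack introns and are expressed mainly in S phase, when new DNA has to be packed, and their mRNAs end in a stem-loop bound by Slbp instead of a poly(A) tail. Variant genes lie mostly outside the clusters, are transcribed throughout the cell cycle and usually give polyadenylated mRNAs, which supply nuclei that no longer divide, such as those of muscle fibres. Here 7 members were clustered core genes (a c and a number in the symbol), 4 were clustered linker genes (H1f1, H1f4, H1f5 and H1f6) and 10 were variants in the sense of all other members. H1f0 and H3f3a, a linker and a core variant of many resting tissues, were not analysed here because the probe table pairs no probe set with them.

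The tissue label held at the level of markers, as 11 of 11 measured muscle fibre genes lay above background in every 0 h array. Background was taken as the 95th percentile of 23 control probe sets built not to match the rat genome, which lay between 6.41 and 6.65 at 0 h and between 7.97 and 8.57 at 48 h on the log2 scale. All 23 of these controls were higher at 48 h, by 0.28 to 1.8, and their median rose from 3.10 to 3.69. Of the histone genes, 10 of 21 exceeded the 95th percentile in every 0 h array and 0 did so in every 48 h array, although all 21 exceeded the median control in each of the 10 arrays. A change below is therefore a difference between measured signals that hold background, and not a fold of RNA levels. Arrays correlated with each other at 0.978 to 0.988 within the 0 h group, 0.901 to 0.940 within the 48 h group and 0.832 to 0.887 between the groups. The values are relative to each array, so a loss of RNA common to all genes cannot be seen in them, and in bulk muscle fewer cells of a type and less RNA per cell cannot be told apart. Histone genes of a family are also close to identical in sequence, so a probe set may pick up transcripts of a related copy, and probe sequences were not analysed here.

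The histone genes did not move as a block. By limma with Benjamini-Hochberg adjustment over 23188 probe sets (adjusted p under 0.05), 5 of 21 were lower at 48 h (H2ac25, H4c14, H2ax, H2az1 and H2az2) and 4 were higher (H2ac1, H2ap, H1f1 and H2ac4). These 9 genes made up 42.9% of the members, against 44.9% of all probe sets, of which 22.8% were lower and 22% higher. The median change of the members was 0.09 on the log2 scale, with a range of -1.08 to 1.06, beside a median of 0.10 over all probe sets. With a fold of at least 2 required as well, 1 gene fell (H2ac25) and 1 rose (H2ac1), or 9.52% of the members against 16.5% of all probe sets (12.1% lower and 4.35% higher). The 5 rats of one group all lay on one side of the 5 of the other for 7 of 21 members (33.3%), of which 3 were lower and 4 higher at 48 h, against 31.1% of all probe sets (17.7% lower and 13.4% higher). All 3 shares lay near or below those of the whole array.

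**Figure D1:**
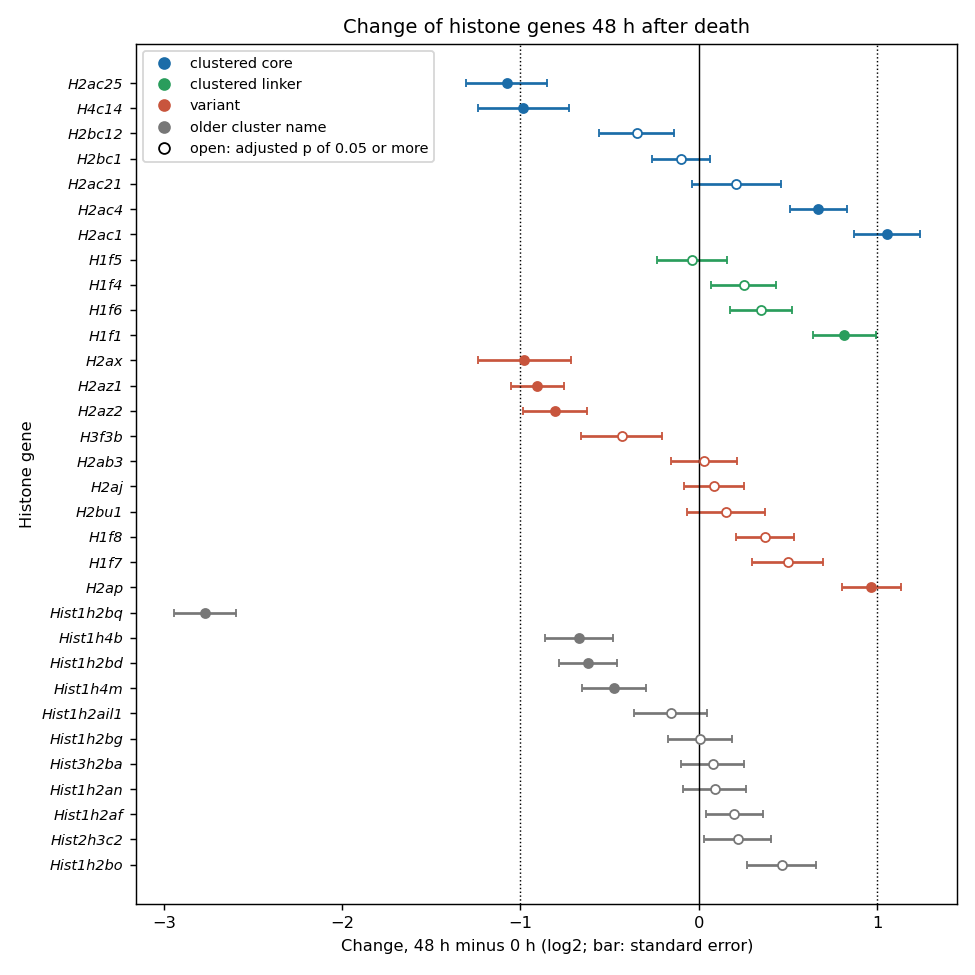
Change of each histone gene, 48 h minus 0 h of PMI, on the log2 scale (horizontal axis; bars are standard errors of the limma fit, 5 rats per group). Filled points had an adjusted p under 0.05 and dotted lines mark a fold of 2, which H2ac25 and H2ac1 passed among the 21 members. Hist1h2bq, one of 11 genes with an older cluster name drawn in grey, had the largest change of those shown, at -2.77.

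The size of these changes and the genes that pass the test depend on the scaling, and for some genes so does the direction. The genes lower at 48 h kept a negative change under every scaling. Those higher at 48 h turned negative with the bacterial controls only. Rescaling the same values moved the median of all probe sets from 0.10 to 0.01 (cyclic loess), -0.49 (centred on the background controls), -0.38 (centred on 1057 olfactory receptor probe sets) or -1.57 (centred on 8 bacterial control probe sets). Relative to that median, 11 of 21 members lay below it as deposited, a count that centring cannot change because it shifts all genes of an array alike. With loess 7 of 21 lay below it, and the median of the members was 0.22. The counts of lower and higher members also depend on the scaling. Loess gave 1 lower and 6 higher, against 19.2% lower and 18% higher of all probe sets. The bacterial controls gave 21 lower and 0 higher, against 97.7% lower of all probe sets. H2ac25 alone passed the adjusted p with the same sign under all 5 scalings.

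Among the 7 clustered core genes, 2 fell, 2 rose and 3 did not pass the test, against 22.8% lower and 22% higher of all probe sets. The class had a median change of -0.10. H2ac25 encodes an H2A of a small cluster on chromosome 10. Its log2 values were 7.15, 8.21, 7.94, 7.73 and 8.16 in 0 h rats 1 to 5 and 6.82, 6.95, 6.98, 6.07 and 6.98 in 48 h rats 1 to 5. Every 48 h rat lay below every 0 h rat, and 48 h rat 4 lay apart below the other 4. The change was -1.08 (SE 0.23) on the log2 scale (adjusted p = 0.0010, limma). All 0 h values lay above the 95th percentile of the background and none of the 48 h values did. Leaving out single rats gave changes of -1.25 to -0.90, and the fold dropped under 2 without 0 h rat 2, 0 h rat 5 or 48 h rat 4, while the adjusted p stayed under 0.05 throughout.

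H4c14, a gene for the core histone H4 on chromosome 2, had the highest 0 h signal of the clustered genes among the 21 members. Its values were 8.84, 9.60, 9.76, 10.00 and 10.01 at 0 h and 8.87, 8.27, 9.09, 7.98 and 9.07 at 48 h. The groups overlapped, because 0 h rat 1 lay at the level of the upper 48 h rats. The change was -0.98 (SE 0.26, adjusted p = 0.0050), and it shrank to -0.36 and no longer passed the test with loess.

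H2ac1 is the H2A gene known as the testis form TH2A, which in rodents is made in male germ cells. Its values were 5.26, 4.85, 5.21, 5.06 and 5.07 at 0 h and 6.33, 5.65, 5.89, 6.49 and 6.38 at 48 h, so that every 48 h rat exceeded every 0 h rat. It was higher by 1.06 (SE 0.19) on the log2 scale (adjusted p = 0.0002) and turned to -0.62 when centred on the bacterial controls. The change stayed between 0.97 and 1.18 without any single rat, and the fold dropped under 2 without 0 h rat 2, 48 h rat 4 or 48 h rat 5. Its signal lay below the 95th percentile of the background controls in all 10 arrays.

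H2ac4, an H2A gene of the main cluster on chromosome 17, had values of 7.34, 7.09, 7.24, 6.99 and 7.24 at 0 h and of 7.74, 7.63, 8.18, 7.75 and 7.95 at 48 h. The groups did not overlap. The signal of H2ac4 lay above background in 5 of 5 rats at 0 h and in 0 of 5 at 48 h, where background was itself higher. The change was 0.67 (SE 0.16, adjusted p = 0.0028), rose to 1.17 with loess, was 0.08 and 0.19 without passing the test when centred on the background controls and the olfactory receptors, and turned to -1.0 with the bacterial controls. The remaining core genes had changes of -0.35 for H2bc12 (adjusted p = 0.187), -0.10 for H2bc1 (adjusted p = 0.641) and 0.21 for H2ac21 (adjusted p = 0.513). H2bc1 is the testis form TH2B, the partner of TH2A in the nucleosome.

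Of the 4 clustered linker genes, 1 rose and 3 did not pass the test, against 22% higher of all probe sets. Their median change was 0.30. H1f1, a linker gene of the main cluster, had values of 5.57, 5.61, 5.87, 5.42 and 5.85 at 0 h and 6.68, 6.66, 6.02, 6.69 and 6.34 at 48 h. All 48 h rats lay above all 0 h rats, 48 h rat 3 by the least. The signal of H1f1 lay above background in 0 of 5 rats at 0 h and in 0 of 5 at 48 h. The change was 0.82 (SE 0.18, adjusted p = 0.0013), stood at 0.22 and 0.34 without passing the test when centred on the background controls and the olfactory receptors, and turned to -0.86 with the bacterial controls. H1f4, whose protein is among the most abundant linker histones of somatic cells, had the highest linker signal and a change of 0.25 (adjusted p = 0.269). H1f6, the testis linker H1t, changed by 0.35 (adjusted p = 0.111) and H1f5 by -0.04 (adjusted p = 0.887).

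Of the 10 variants, 3 fell, 1 rose and 6 did not pass the test, against 22.8% lower and 22% higher of all probe sets. Their median change was 0.06. The H2A.Z genes H2az1 and H2az2 encode nearly identical variants found in nucleosomes beside active promoters. H2az1 had values of 8.92, 9.16, 9.10, 9.09 and 9.0 at 0 h and 8.20, 8.19, 8.26, 7.95 and 8.15 at 48 h. Both groups were narrow (SD 0.09 at 0 h and 0.12 at 48 h, n = 5 each) and lay well apart. The change of H2az1 was -0.91 (SE 0.15, adjusted p = 0.0001), the smallest adjusted p among the 21 members.

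H2az2 had values of 9.20, 9.06, 9.17, 9.0 and 9.21 at 0 h and 8.22, 8.45, 8.85, 7.88 and 8.21 at 48 h. The groups did not overlap, but the 48 h rats were spread more widely (SD 0.09 at 0 h and 0.36 at 48 h). Its change was -0.81 (SE 0.18, adjusted p = 0.0016). With loess, neither change passed the test, at -0.31 for H2az1 and -0.20 for H2az2.

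H2ax encodes the variant that is phosphorylated around DNA double-strand breaks. Its values were 6.87, 7.70, 7.39, 7.69 and 7.64 at 0 h and 6.31, 5.72, 7.33, 6.83 and 6.20 at 48 h. The groups overlapped through 48 h rat 3, which lay within the 0 h range, and the SD of 0.62 at 48 h was the largest of all members. The change was -0.98 (SE 0.26, adjusted p = 0.0059) and -0.56 with loess, where it missed the threshold.

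H3f3b encodes H3.3, the H3 variant that replaces H3 outside S phase. It had values of 7.81, 7.72, 7.74, 7.63 and 8.08 at 0 h and 7.05, 7.69, 7.76, 6.54 and 7.76 at 48 h. Of the 48 h rats, 3 lay within the 0 h range and rats 1 and 4 below it. The change was -0.43 (SE 0.22, adjusted p = 0.127), missed the test and turned to 0.08 with loess.

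H2ap, an X-linked gene of the short H2A family, was the variant that rose. Its values were 4.0, 4.25, 4.36, 4.14 and 4.22 at 0 h and 4.76, 5.27, 5.17, 5.48 and 5.13 at 48 h, without overlap. The change was 0.97 (SE 0.17, adjusted p = 0.0002), missed the test at 0.38 when centred on the background controls and turned to -0.71 with the bacterial controls. The signal lay below the 95th percentile of the background in all arrays. Short H2A variants are known mainly from the testis. Other variants known from germ cells did not pass the test, namely H1f7, a linker of spermatids (change 0.50, adjusted p = 0.0524), H1f8, the oocyte linker (0.37, adjusted p = 0.0752), and H2ab3, an X-linked short H2A (0.03, adjusted p = 0.909). The variants H2aj and H2bu1 changed by 0.09 (adjusted p = 0.698) and 0.15 (adjusted p = 0.59). H2bu1 counts as a variant by its symbol, although it lies next to the clustered gene H2ac25 on chromosome 10.

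**Figure D2:**
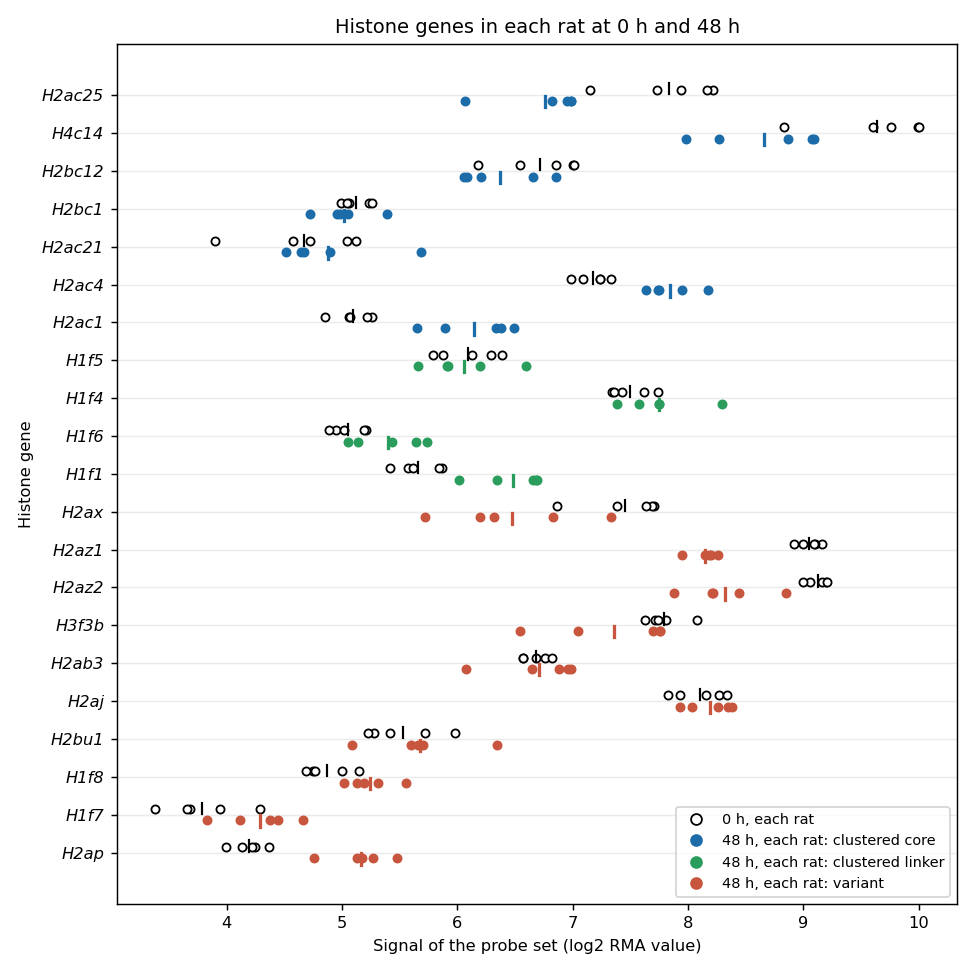
Signal of each of the 21 histone genes in every rat (horizontal axis, log2 RMA value; open circles 0 h, filled circles 48 h, short bars group means). The groups lay apart for 7 genes, with 48 h lower for H2ac25, H2az1 and H2az2 and higher for H2ac4, H2ac1, H1f1 and H2ap.

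The replication-dependent genes and the variants were not set apart by these counts. The 11 clustered genes had 2 lower, 3 higher and a median change of 0.21, the 10 variants 3 lower, 1 higher and a median of 0.06. In all, 45.5% of the clustered genes and 40% of the variants passed the adjusted p. Of all probe sets 44.9% did (22.8% lower and 22% higher). The core genes alone had a median of -0.10 and the linker genes one of 0.30. Adding the genes of an older cluster name to the core genes gave 18 genes, 6 lower and 2 higher, with a median of -0.05. These names were added after the values were seen, and 44.4% of the 18 genes passed. By family, 7 of the 10 H2A genes passed (70%, 4 lower and 3 higher), against 44.9% of all probe sets. They made up 7 of the 9 genes that passed, in a set where H2A supplied 10 of 21 members. Both genes past a fold of 2 were H2A genes. With so few genes in each family, the difference between families was not tested. The median change of the H2A genes was 0.06 and turned negative under the 3 centrings. The 6 H1 genes had 1 higher, 0 lower and a median of 0.36, which was negative under the 3 centrings. None of the 3 H2B genes passed, at an adjusted p of 0.187 or more. H3 and H4 were each represented by a single gene. Of the 8 members on chromosome 17, where the main cluster lies, 3 were higher and 0 lower, against 22% higher and 22.8% lower of all probe sets. The symbol rule leaves out genes of this chromosome with an older cluster name. Among those, Hist1h2bq, Hist1h2bd, Hist1h4b and Hist1h4m were lower.

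2 pairs of neighbouring histone genes share a promoter region. H2ac1 and H2bc1 lie head to head on chromosome 17 with start sites 240 bases apart, and H2ac25 and H2bu1 lie head to head on chromosome 10 with start sites 218 bases apart. The RefSeq promoter windows (250 bases before to 50 after each start site, assembly GRCr8) therefore share 261 and 283 of their 300 bases. The windows of H2ac1 and H2ac25 are shown in the 5′ to 3′ direction of the named gene because each holds most of the sequence between a gene that passed the test and a neighbour that did not. The windows of H2az1 and H2az2, which lie on different chromosomes and both fell, are shown for comparison. Capitals mark matches to the letters of 3 motifs on either strand, wherever they lie in the window. These are the CCAAT box, the TATA box with the letters TATAAA and the core of the octamer element of H2B promoters, TTTGCAT.
H2ac1, chr17:41599623-41599922, minus strand: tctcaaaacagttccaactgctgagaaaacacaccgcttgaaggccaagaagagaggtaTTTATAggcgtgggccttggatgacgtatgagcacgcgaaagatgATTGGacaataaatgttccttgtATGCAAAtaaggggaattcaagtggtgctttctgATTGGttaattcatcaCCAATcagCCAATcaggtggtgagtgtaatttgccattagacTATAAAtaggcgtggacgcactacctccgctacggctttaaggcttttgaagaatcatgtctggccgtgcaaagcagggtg
H2ac25, chr10:44233033-44233332, plus strand: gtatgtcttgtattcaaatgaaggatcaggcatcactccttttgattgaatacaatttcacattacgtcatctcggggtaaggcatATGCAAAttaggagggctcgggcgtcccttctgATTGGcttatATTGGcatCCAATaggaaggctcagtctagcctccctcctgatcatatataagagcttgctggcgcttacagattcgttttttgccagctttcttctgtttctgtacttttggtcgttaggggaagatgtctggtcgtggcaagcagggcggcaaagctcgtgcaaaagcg
H2az1, chr2:229028845-229029144, plus strand: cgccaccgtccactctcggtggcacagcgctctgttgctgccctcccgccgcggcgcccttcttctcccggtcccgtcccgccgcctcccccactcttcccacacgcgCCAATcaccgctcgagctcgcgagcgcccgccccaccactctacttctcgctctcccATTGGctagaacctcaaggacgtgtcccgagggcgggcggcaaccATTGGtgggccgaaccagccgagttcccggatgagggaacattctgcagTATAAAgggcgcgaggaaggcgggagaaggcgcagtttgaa
H2az2, chr14:85526019-85526318, minus strand: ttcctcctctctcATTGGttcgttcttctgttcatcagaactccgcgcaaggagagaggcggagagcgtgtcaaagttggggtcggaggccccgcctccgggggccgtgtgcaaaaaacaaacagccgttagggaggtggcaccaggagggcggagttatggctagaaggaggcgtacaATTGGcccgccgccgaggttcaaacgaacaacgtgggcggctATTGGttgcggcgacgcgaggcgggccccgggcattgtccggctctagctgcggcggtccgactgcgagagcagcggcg

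In the window of H2ac1, CCAAT or its reverse complement occurred 4 times and TATAAA lay 31 bases before the start site. A second TATAAA on the other strand lay 191 bases before it, towards H2bc1. A single octamer core lay between the genes. In the window of H2ac25 CCAAT or its reverse complement occurred 3 times and an octamer core lay 164 bases before the start site. H2az1 and H2az2 each held CCAAT 3 times and no octamer core. Over the 20 members with a promoter in the table (H4c14 is not among them), CCAAT or ATTGG was found in 19, against 37.5% of 33469 promoters. TATAAA or TTTATA was found in 11 of 20 against 14.2%, in 5 of 6 core, 3 of 4 linker and 3 of 10 variant genes. These are matches anywhere in the window and need not be a TATA box of the gene. In H2az1 TATAAA lay 9 bases after the start site. In H2bc12 it lay on the other strand, 217 bases before the start site. TTTGCAT or ATGCAAA was found in 6 of 20 against 4.68%, in 4 core, 0 linker and 2 variant genes. The members share gene families and, for both neighbour pairs, most of the window, so these shares are descriptions. The windows of the 2 genes that passed the fold criterion, one lower and one higher, both held CCAAT and the octamer core. So did those of their neighbours H2bc1 and H2bu1, and of H2bc12 and H3f3b, which did not pass the test.

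The changes of these genes are given side by side as a description without a test, since the pairs were chosen after their values were seen. H2ac1 changed by 1.06 and H2bc1, its neighbour, by -0.10. Both genes lay below the 95th percentile of the background in all 10 arrays, so the small change of H2bc1 does not show that its RNA stayed level. H2ac25 changed by -1.08 and its neighbour H2bu1 by 0.15. H2bu1 lay below that percentile in all 10 arrays as well. H2az1 changed by -0.91 and H2az2 by -0.81, and both lay above it in every 0 h array.

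**Figure D3:**
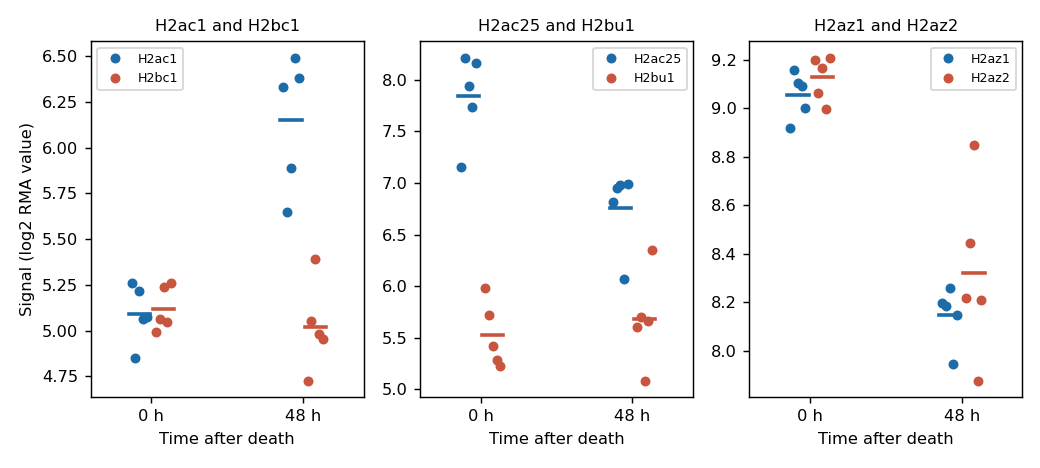
Signal (vertical axis, log2 RMA value, a separate scale in each panel) of 3 gene pairs in every rat at 0 h and 48 h of PMI, with bars at the group means. H2ac1 rose from a mean of 5.09 to 6.15 while H2bc1 went from 5.12 to 5.02, H2ac25 fell from 7.84 to 6.76 while H2bu1 went from 5.53 to 5.68, and H2az1 and H2az2 both fell. H2ac1, H2bc1 and H2bu1 lay below the 95th percentile of the background controls in all arrays.

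Change followed signal across the whole array, and the histone genes were read against probe sets of their own brightness. The median change of all probe sets went from 0.34 at mean signals under 4 to -0.67 at signals of 8 to 9. In the bin of 8 to 9, H2az1 and H2az2 lay near the median at -0.91 and -0.81, and 55.9% of its 909 probe sets were lower. H2aj, a replication-independent H2A in the same bin, was at 0.09. H4c14 lay in the brightest bin, whose median was -0.64. In the bin of 7 to 8 the median was -0.52 and 13.8% of 2081 probe sets were higher. H2ac4 was one of the higher probe sets there and H2ac25 one of the lower. The bin of 6 to 7 had a median of -0.28, with 40.3% of 3845 probe sets lower and 14.6% higher. It held H1f1 at 0.82 and H2ax at -0.98. Of the members higher at 48 h, H2ap lay in a dim bin (4 to 5) where 27% of probe sets were higher and H2ac1 in a bin (5 to 6) where 18.3% were. The signal comes from the same arrays as the change, so these bins are descriptions.

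**Figure D4:**
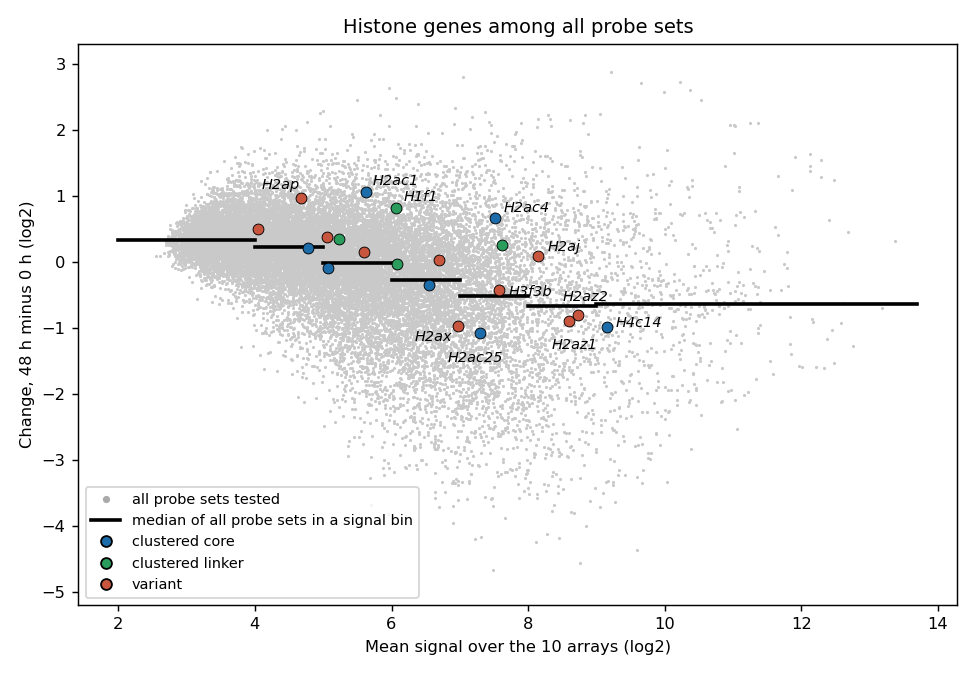
Change, 48 h minus 0 h (vertical axis, log2), against the mean signal over the 10 arrays (horizontal axis, log2) for all 23188 probe sets (grey) and the 21 histone genes (coloured by class). Black lines give the median of all probe sets in each signal bin, from 0.34 in the dimmest bin to -0.67 at 8 to 9. H2ac4 at 0.67 and H2aj at 0.09 lie above the lines of their bins.

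Rats differed more at 48 h. The SD over rats was wider at 48 h for 17 of 21 members, with a median SD of 0.19 at 0 h and 0.36 at 48 h, as over all probe sets (0.19 and 0.37). 48 h rat 4 had the lowest value of its group in 4 of the 5 genes that fell and the highest in 3 of the 4 that rose. The array of this rat also had the lowest mean correlation with its group (0.912, others 0.919 to 0.931), and the part of RNA quality in this was not tested. Without 48 h rat 4 the same 5 and 4 genes passed the adjusted p. 48 h rat 3 had the highest value of its group in 4 of the 5 genes that fell. Over all 21 members, rat 3 was highest in 8 and lowest in 6, and rat 4 highest in 7 and lowest in 5.

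**Figure D5:**
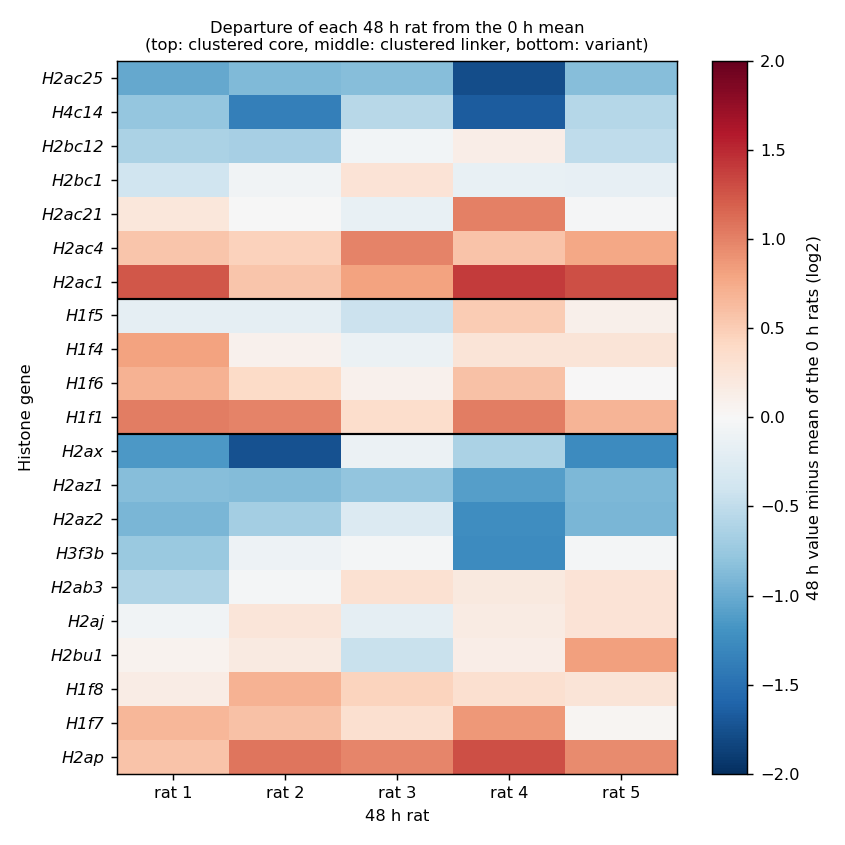
Departure of each 48 h rat (columns) from the mean of the 0 h rats, on the log2 scale (colour, red higher and blue lower), for the 21 histone genes in 3 blocks of classes. Columns differ within a row, with H2ac25 and H3f3b lowest in rat 4 and H2ax nearest to 0 in rat 3.

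A further 11 histone genes carry an older cluster name (Hist and a number) and fall outside the symbol rule. They were added after the values were seen. Of these, 4 fell and 0 rose (36.4% past the adjusted p, against 44.9% of all probe sets), with a median change of 0.01. Hist1h2bq, an H2B gene of the main cluster, had the largest change of the histone genes examined here. Its values were 7.68, 8.05, 8.12, 8.16 and 8.01 at 0 h and 5.26, 5.58, 5.45, 4.98 and 4.90 at 48 h, so the groups lay over 2 log2 units apart. The change was -2.77 (SE 0.18, adjusted p = 1.01e-08). All 5 rats lay above the 95th percentile of the background at 0 h and 0 of 5 at 48 h, so the size of the fall is that of the measured signals only. The other H2B genes of these names did not move alike, with Hist1h2bd at -0.62 (adjusted p = 0.0054), Hist1h2bg at 0.01 (adjusted p = 0.976) and Hist1h2bo at 0.47 (adjusted p = 0.061). The H4 genes Hist1h4b and Hist1h4m changed by -0.67 (adjusted p = 0.0083) and -0.48 (adjusted p = 0.0376), in the same direction as H4c14. With these genes the set counts 9 lower and 4 higher of 32, or 40.6% against 44.9% of all probe sets. Of the 32, 3 passed the fold as well, or 9.38% against 16.5% of all probe sets.

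Among genes that process, carry and exchange histones, more fell than rose, as among all probe sets of similar signal. Of 19 measured genes of histone mRNA 3′ end processing and decay (of 31 listed), 8 fell, 1 rose and the median change was -0.34. The largest falls were of Cpsf3 (the endonuclease that cuts histone pre-mRNA, -1.61), Snrpb (a core Sm protein, -1.55) and Ncbp1 (a cap-binding protein, -1.09). Lsm11, a protein of the U7 particle that guides the cut, rose by 0.93. Slbp itself changed by 0.18 (adjusted p = 0.414). Of 25 measured histone chaperones and exchange factors (of 31), 9 fell, 1 rose and the median was -0.37. Rbbp7, a chaperone of H3 and H4, changed by -2.05, Vps72, which deposits H2A.Z, by -1.48 and Nap1l4, a carrier of H2A and H2B, by -1.47. Anp32e, which removes H2A.Z, fell by 1.12, and Ep400, a remodeller that exchanges H2A.Z, rose by 0.50. Of all probe sets, 22.8% were lower and 22% higher.

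Of 4 other measured variants outside the rule (of 6), 3 fell, with a median of -0.62. These were Hils1, a spermatid linker (-0.76), Cenpa, the H3 of centromeres (-0.74), and Macroh2a1, a large H2A variant (-0.51). Hils1 and Cenpa lay below the 95th percentile of the background in at least 1 of the 0 h arrays. Of 26 measured S phase genes (of 29), 4 fell and 2 rose, against 22.8% lower and 22% higher of all probe sets, and the median was -0.02. The largest falls were those of Rrm1, a ribonucleotide reductase subunit (-1.37), Cdk1, the mitotic kinase (-1.08), and Mcm4, a helicase subunit (-0.96). Pola1, a DNA polymerase subunit, rose by 0.72 and Tyms, thymidylate synthase, rose by 0.69. Pcna, the sliding clamp of replication, changed by -0.46 (adjusted p = 0.0839). Of these 26 genes, 24 lay below the 95th percentile of the background in at least 1 of the 0 h arrays.

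Cell type markers moved beside the histone genes. Over all probe sets the shares were 22.8% lower and 22% higher. At mean signals of 9 or more, 59.6% were lower and 18.1% higher. In the bins of 5 to 6 and 6 to 7, 24.2% and 40.3% were lower, and 18.3% and 14.6% higher. All 11 muscle fibre genes fell (median -1.53), among them Myh4 (-1.53), Tnnc2 (-1.28) and Acta1 (-0.71). Their mean signal went from 11.9 to 12.3 in the 0 h arrays to 9.38 to 10.8 in the 48 h arrays. All 7 fibroblast genes fell (median -1.23), among them Dcn, a matrix proteoglycan (-1.24). Of the 5 satellite cell genes, 2 fell (median -0.40). Of 11 endothelial genes 9 rose and 0 fell (median 1.23), among them Emcn, an endothelial sialomucin, by 2.15, and their mean signal went from 6.48 to 6.86 up to 7.46 to 8.15. Of 11 erythroid genes 9 rose and 0 fell (median 1.54), among them Hbb, a globin, by 2.10. Their mean signal went from 6.58 to 7.24 up to 8.26 to 8.65. Of 11 leukocyte genes, 4 fell and 1 rose (median 0.03), and all 11 lay below the 95th percentile of the background in at least 1 of the 0 h arrays. The part of these shifts in the histone values was not tested.

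Because several members are histones of germ cells, 14 male germ cell genes were read as well. Of these, 6 rose and 0 fell (median 0.39), against 22% higher of all probe sets and 27% to 31.3% of those in the 2 dimmest signal bins, and 12 of 14 lay below the 95th percentile of the background in at least 1 of the 0 h arrays. Acr, the acrosin protease, rose by 1.44 and Tnp1, a transition protein that replaces histones in spermatids, by 1.01, while Prm2, a protamine, changed by -0.04 (adjusted p = 0.889). Their mean signal lay between 4.72 and 4.80 at 0 h and between 5.18 and 5.28 at 48 h, a shift that moved the same way as that of the background controls (median 3.10 to 3.69). Its part in the rise of H2ac1 and H2ap was not tested.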

How the data were processed

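Femoral muscle RNA of 5 rats at 0 h and 5 rats at 48 h of PMI was measured on 1 Clariom S Rat array per rat. Labeled target was made by the authors with the GeneChip 3′ IVT Pico kit. How the kit primes histone mRNAs without a poly(A) tail is not given in the sources used here. RNA bands were checked by the authors at 0 h and not at 48 h. The deposited values are log2 values made by the authors with RMA in Transcriptome Analysis Console 4.0 (build rn6 in the submitters' processing notes), and they were used as deposited. RMA fits the arrays to a common distribution, so each value is relative to the other genes of its array. Precision is limited by the number of arrays.

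Of 24834 probe sets, 1646 controls were left out (1552 RG1, 63 ERCC and 31 AFFX), and 23188 were tested with limma 3.58.1 in R 4.3.3 (lmFit and eBayes, two-sided, no block, 8 residual and 8.99 prior degrees of freedom) with Benjamini-Hochberg adjustment. "Rose" and "fell" mean an adjusted p under 0.05, and a fold of at least 2 was required only where stated. The methods used an analysis of variance with an unadjusted p under 0.05 and a fold of 2. This was run as an alternative chosen after seeing the data, and the same test with adjusted p as another. Symbols came from the platform's probe table (15049 probe sets with 1 symbol, 8139 with none), and the probe set with the highest mean stood for a gene. Promoters are those of RefSeq (GRCr8). Protein sequences were not used here.

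Genes were named by rule where they passed both criteria, where they were H1f0, H2az1 or H3f3b, or where they had the highest 0 h mean of a class or family. H2ax, H2ap, H1f1, H2ac4, the older cluster names and the gene pairs were singled out after their values were seen. Lists covered 3′ end processing, chaperones, other variants, S phase and markers of muscle fibres, endothelium, erythroid cells, leukocytes, fibroblasts, satellite cells and male germ cells. Up to 3 genes per list and direction were named, and Slbp, Pcna, Anp32e and Prm2 were added for their role. The members and lists were chosen with earlier results of these data known. Alternatives were 4 rescalings, other moderation, a filter on dim probe sets, each rat left out, a replicate block and the older names added (the last after seeing the data). The scripts were tested on simulated data. The limma p-values set the difference between the groups against the spread between rats, moderated by the spread over all probe sets.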

Additional observations from a re-analysis of the deposited data

Results flagged for a closer look

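The value of H2ac25, the clustered H2A gene that fell, was 6.07 in 48 h rat 4, while the other 48 h rats lay between 6.82 and 6.98. The gap took up 0.818 of the range of the group, above Dixon's critical value of 0.71 for 5 samples. Over the 21 genes and both groups, 42 groups were tested and 1 was flagged, where chance would give 2.1. Without this rat H2ac25 still had an adjusted p under 0.05 by limma, at a change of -0.90 and so under a fold of 2.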

How the results depend on the processing

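Counts of histone genes with an adjusted p under 0.05 kept 5 lower and 4 or 5 higher when any single rat was left out. With a fold of 2 as well, leaving out single rats gave 0 to 3 lower and 0 to 2 higher. For lower and higher genes by adjusted p, loess gave 1 and 6, the background controls 11 and 1, the olfactory receptors 9 and 2, the bacterial controls 21 and 0 and the older names added 9 and 4. With the fold as well, these settings gave 0 and 3, 6 and 0, 5 and 0, 18 and 0, and 2 and 1, and dropping the fold criterion gave 5 and 4. Of all probe sets, 19.2%, 50.3%, 42.9% and 97.7% were lower by adjusted p in the 4 rescalings. The methods' own criteria (analysis of variance, unadjusted p and fold) gave H2ac25 lower and H2ac1 higher, 1 gene each, beside 12.1% and 4.35% of all probe sets.

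Class and family medians were all below 0 when centred on the background controls, the olfactory receptors and the bacterial controls, in this order (core, H2B, H3 and H4 were so as deposited): core -0.69, -0.58 and -1.77; linker -0.29, -0.18 and -1.37; variants and H2A each -0.53, -0.42 and -1.62; H1 -0.23, -0.12 and -1.31; H2B as core; H3 -1.02, -0.91 and -2.11. H4 was at -1.58 and -2.66 with the background and bacterial controls. With loess, linker genes were at 0.55, H3 at 0.079 and H4 at -0.36. With dim probe sets left out, variants were at -0.43 and H2A at -0.39, since fewer genes were counted. Core genes with linker genes had a median of 0.21. Without single rats the medians ranged from -0.19 to -0.03 for core and H2B, 0.19 to 0.38 for linker, -0.02 to 0.15 for variants, 0.32 to 0.42 for H1, -0.002 to 0.16 for H2A, -0.53 to -0.23 for H3 and -1.18 to -0.81 for H4.

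Signs turned with the bacterial controls for H2ac1 (-0.62), H2ap (-0.71), H1f1 (-0.86) and H2ac4 (-1.0). With the background, olfactory and bacterial centring, H1f4 was at -0.34, -0.23 and -1.42, H1f8 at -0.22, -0.11 and -1.30 and H2bu1 at -0.44, -0.33 and -1.52. H3f3b was at 0.079 with loess. Without single rats H2bu1 ranged from -0.013 (without 48 h rat 5) to 0.30. The cause was not tested. Of the values of single genes under the alternatives, 217 kept their sign and side of the threshold, 9 lost the threshold and 9 passed it.

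The rat numbers name different animals. Correlations of same-numbered deviations exceeded 0.1 in 0 of 5 pairs, and 6 of 10 samples correlated best with their own number. The replicate block gave 5 lower and 5 higher genes, with 1 and 1 past the fold as well. It changed no other call than that of H1f7. The median signal of the background controls rose from 3.10 to 3.69, which limits what dim genes can show.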
